A study of Mus musculus with 3 samples.

Results

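The clustered replication-dependent histone genes were described in mouse splenic B cells treated with JQ1+ or flavopiridol. Members were all genes whose symbol begins with Hist1h, Hist2h, Hist3h or Hist4h in the deposited tables, 64 of 33605 symbols. By the letters after the h, 6 encode linker histone H1, 18 H2A, 16 H2B, 12 H3 and 12 H4. By the number in the symbol, 51 belong to the Hist1 cluster, 10 to Hist2 and 3 to Hist3, which GENCODE M21 places on chromosomes 13, 3 and 11. The tables type 2 members, Hist1h2aj and Hist3h2bb-ps, as pseudogenes.

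All 3 groups were CD43- B cells from the spleen of C57BL/6 mice, cultured for 3 days in RPMI1640 with lipopolysaccharide (LPS) and interleukin-4 (IL4), a mixture that drives B cells into division. The groups were JQ1+ at 80 nM, flavopiridol at 30 nM and the vehicle DMSO, with 1 library each. JQ1 displaces BET bromodomain proteins from acetylated chromatin, and flavopiridol blocks several cyclin-dependent kinases, Cdk9 among them. The labels do not say which animals supplied which culture. With 1 library per group there was no replicate check and no test, and the intervals given below cover counting error only. RPKM divides by a total taken from the same library, so a loss common to all RNA is not visible in it, and fewer dividing cells cannot be told apart from less histone RNA per dividing cell.

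Core histones H2A, H2B, H3 and H4 form the protein spool of the nucleosome, and H1 binds the DNA where it enters and leaves. Most of their genes lie in clusters, lack introns, and are transcribed mainly in S phase, when new DNA needs packing. Their messenger RNAs end in a conserved stem-loop instead of a poly(A) tail. The stem-loop binding protein Slbp and the U7 small nuclear ribonucleoprotein direct the cut that makes this end, and in human cells Cdk9 is known to take part in it. The libraries were made from total RNA after removal of ribosomal RNA, so transcripts without a poly(A) tail were kept.

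The stem-loop letters are shown because they mark this RNA end and differ between the classes. All 64 members matched a GENCODE M21 gene (build GRCm38), 58 by identifier and 6 by symbol. The letters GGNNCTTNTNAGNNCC, searched on the transcript strand, were present in the transcript model of 42 members and in 0.621% of 21901 protein-coding genes. In all 42 the arms could form 6 base pairs around a loop of 4 bases. The 42 members held 8 different stem-loops, and an example of each is printed 5′ to 3′ as DNA, with the stem arms in capitals and up to 5 flanking bases on each side.
Hist1h1e: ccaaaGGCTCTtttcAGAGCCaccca
Hist1h2bb: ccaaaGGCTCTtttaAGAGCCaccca
Hist2h2ac: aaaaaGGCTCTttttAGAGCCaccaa
Hist1h3g: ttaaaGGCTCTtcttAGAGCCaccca
Hist1h4d: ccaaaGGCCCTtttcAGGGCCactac
Hist2h4: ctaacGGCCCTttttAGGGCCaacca
Hist1h4b: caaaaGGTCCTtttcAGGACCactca
Hist1h4a: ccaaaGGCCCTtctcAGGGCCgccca

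The Hist1h1e stem-loop was the most common, in 23 members of the classes H1, H2A, H2B and H3 and in no H4 gene. The Hist1h2bb stem-loop, with another loop, was in 6 members of H1, H2B and H3. Every H4 stem-loop had the arms of Hist1h4d or those of Hist1h4b, which no member of another class had. The Hist1h4d stem-loop was in 6 H4 genes, and the Hist1h4b stem-loop in Hist1h4b and Hist1h4j. The other 22 members, among them Hist1h1a, Hist1h1b, Hist1h2ba and Hist2h2be, had no match, which says only that the letters are not in these transcript models.

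Promoters are shown for members whose levels are described below. RefSeq promoter sequence (GRCm38.p6, 250 bases before the start and 50 after it) was matched for 56 members. The letters CCAAT were on either strand in all 6 H1, 16 H2A, 13 H2B and 10 H3 promoters matched, in 3 of 11 H4 promoters, and in 37.4% of 32851 promoters of the same length. TATAAA was in 34 of the 56 (60.7%) against 13.6% of all promoters. The octamer ATTTGCAT, the element bound by Oct factors and their B cell coactivator Pou2af1, was in 7 of 16 H2A and 6 of 13 H2B promoters, in no H1, H3 or H4 promoter, and in 1.74% of all promoters. H2A and H2B genes often face away from each other across a shared promoter, and windows of 6 such pairs overlapped, so a site can be counted for both. Capitals mark these motifs on either strand in the promoters of Hist1h2ba (chr13:23934107-23934406, minus strand), Hist1h2bb (chr13:23746484-23746783, plus strand), Hist1h4d (chr13:23581318-23581617, plus strand) and Hist1h4n (chr13:21832148-21832447, minus strand).
Hist1h2ba: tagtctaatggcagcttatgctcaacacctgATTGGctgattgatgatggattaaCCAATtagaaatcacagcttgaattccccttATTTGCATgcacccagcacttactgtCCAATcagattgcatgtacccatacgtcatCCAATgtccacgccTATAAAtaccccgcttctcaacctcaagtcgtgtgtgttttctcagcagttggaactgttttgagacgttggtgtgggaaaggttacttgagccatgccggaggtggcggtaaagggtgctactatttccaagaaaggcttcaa
Hist1h2bb: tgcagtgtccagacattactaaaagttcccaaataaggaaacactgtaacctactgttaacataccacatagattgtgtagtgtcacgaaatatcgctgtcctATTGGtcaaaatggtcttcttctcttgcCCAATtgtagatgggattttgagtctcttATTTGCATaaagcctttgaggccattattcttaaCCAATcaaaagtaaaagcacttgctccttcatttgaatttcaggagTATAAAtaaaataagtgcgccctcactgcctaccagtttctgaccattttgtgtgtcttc
Hist1h4d: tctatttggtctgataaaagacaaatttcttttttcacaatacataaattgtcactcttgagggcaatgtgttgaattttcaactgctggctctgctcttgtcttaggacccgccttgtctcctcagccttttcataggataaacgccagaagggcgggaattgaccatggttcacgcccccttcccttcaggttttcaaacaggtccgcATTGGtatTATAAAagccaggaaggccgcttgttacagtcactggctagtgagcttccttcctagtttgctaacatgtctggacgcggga
Hist1h4n: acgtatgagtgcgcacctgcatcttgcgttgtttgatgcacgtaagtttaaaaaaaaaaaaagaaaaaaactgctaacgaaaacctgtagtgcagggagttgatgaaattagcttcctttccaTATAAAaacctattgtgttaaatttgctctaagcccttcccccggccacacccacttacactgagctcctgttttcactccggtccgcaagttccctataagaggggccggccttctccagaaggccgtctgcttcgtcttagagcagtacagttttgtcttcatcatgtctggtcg

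The Hist1h2ba and Hist1h2bb windows each held 1 octamer and 1 TATAAA, with 4 and 3 CCAAT letters. The Hist1h4d window held 1 TATAAA and 1 CCAAT, and the Hist1h4n window 1 TATAAA and no CCAAT. A match describes the letters and is not evidence of binding.

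Deposited counts summed to between 50184508 and 59786847 per library. Histone members took 1.70% of counts with JQ1+, 1.40% with flavopiridol and 1.55% with DMSO. Markers of B cells summed to 4414 RPKM with JQ1+, 3623 with flavopiridol and 3393 with DMSO, with all 5 present. The 5 T cell markers summed to at most 1.42 RPKM and the 4 NK cell markers to at most 3.00, with Ncr1 listed at 0 throughout. The 4 erythroid markers summed to at most 2.20 RPKM. The 5 myeloid markers summed to 7.48 RPKM with JQ1+, 14.0 with flavopiridol and 7.88 with DMSO, with Emr1 at 0.801, 9.47 and 0.922. The 4 dendritic cell markers summed to 9.92 RPKM with JQ1+, 32.5 with flavopiridol and 89.1 with DMSO, led by Batf3 and Flt3, with Siglech at 0.031 RPKM or listed at 0. The part of these cells in the histone values was not tested.

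Histone transcripts were abundant in all 3 libraries. Of the 64 members, 57 had a mean of at least 100 RPKM, and 63 had a mean of at least 1 RPKM, the minimum for a change to be counted. The member under the minimum was Hist1h2aa, a testis H2A, with 0, 0.299 and 0.244 RPKM with JQ1+, flavopiridol and DMSO. Its counts of 0, 2 and 2 reads lie at or under the 3 reads that a count of 0 allows. The summed RPKM of all members was 70988 with JQ1+, 64319 with flavopiridol and 68892 with DMSO. H4 took the largest part of this sum in each library, 32.3% with JQ1+, 32.4% with flavopiridol and 31.8% with DMSO, and H1 the smallest, 13.0%, 11.7% and 11.8%. By summed counts, which are not divided by gene length, H4 was also the largest class in each library, but H2B was the smallest. H2B had 155029, 124486 and 164634 counts, and H1 had 180605, 132509 and 178820.

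**Figure D1:**
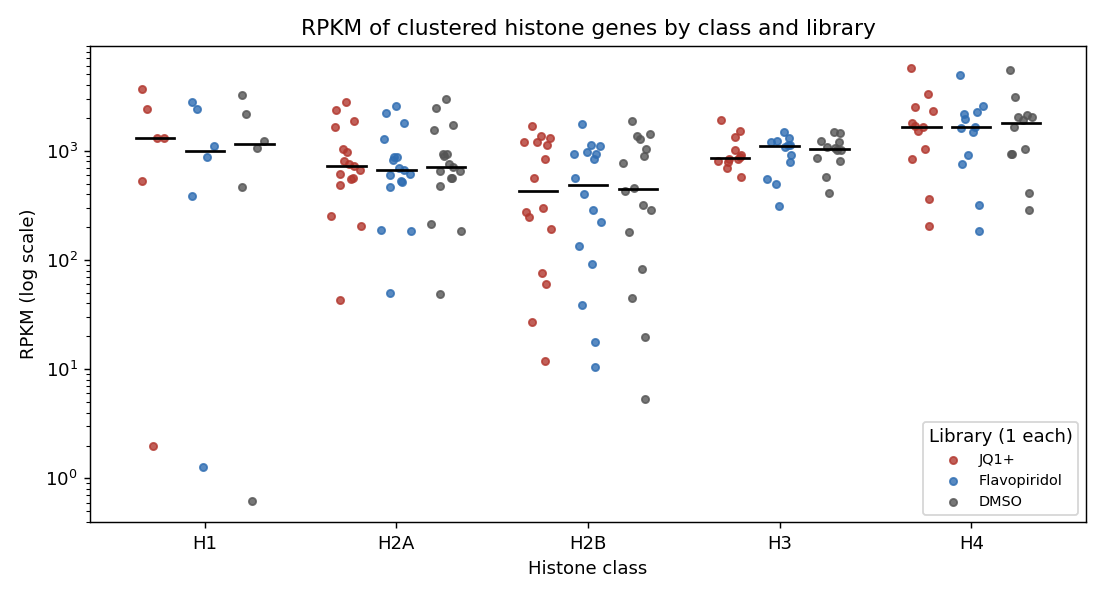
RPKM (log scale) of the 63 members with a mean of at least 1 RPKM, by histone class, in the JQ1+, flavopiridol and DMSO libraries (1 each). Points are genes and bars are class medians; 57 genes have a mean of at least 100 RPKM, the highest point of each library is Hist1h4d in H4, and the lowest is Hist1h1t in H1.

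Summed over each class, histone RNA stayed close to the vehicle level with JQ1+. The H1 sum was 1.13 times DMSO (95% interval 1.12 to 1.15) and the H4 sum 1.05 times (1.04 to 1.06). The sums of H2A (1.005 times, 0.994 to 1.02), H2B (10453 RPKM with JQ1+ and 10452 with DMSO, a ratio between 0.989 and 1.01) and H3 (0.991 times, 0.981 to 1.002) differed from DMSO by no more than counting error. After libraries were rescaled by the median of ratios these 3 ratios stood at 1.07, 1.06 and 1.06, so the H3 ratio turned above 1. The level sums also rested on single genes: without the gene of highest mean RPKM the ratio was 1.019 for H2A (1.007 to 1.03), 1.02 for H2B (1.008 to 1.03) and 0.928 for H3 (0.917 to 0.938), each beyond counting error. With flavopiridol each class sum was lower than with DMSO, at 0.928 times for H1, 0.918 for H2A, 0.902 for H2B, 0.953 for H3 and 0.952 for H4. Their intervals ran from 0.891 to 0.913 for H2B at the lowest to 0.942 to 0.964 for H3 at the highest, and each ratio was lower still after rescaling by the median of ratios, which takes 0.14 off each log2 change with flavopiridol against DMSO. JQ1+ over flavopiridol was 1.22 times for H1 (1.21 to 1.24), 1.09 for H2A, 1.11 for H2B, 1.04 for H3 and 1.10 for H4. Without Hist1h3g, the H3 gene with the highest mean RPKM, the H3 ratio turned to 0.977.

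**Figure D2:**
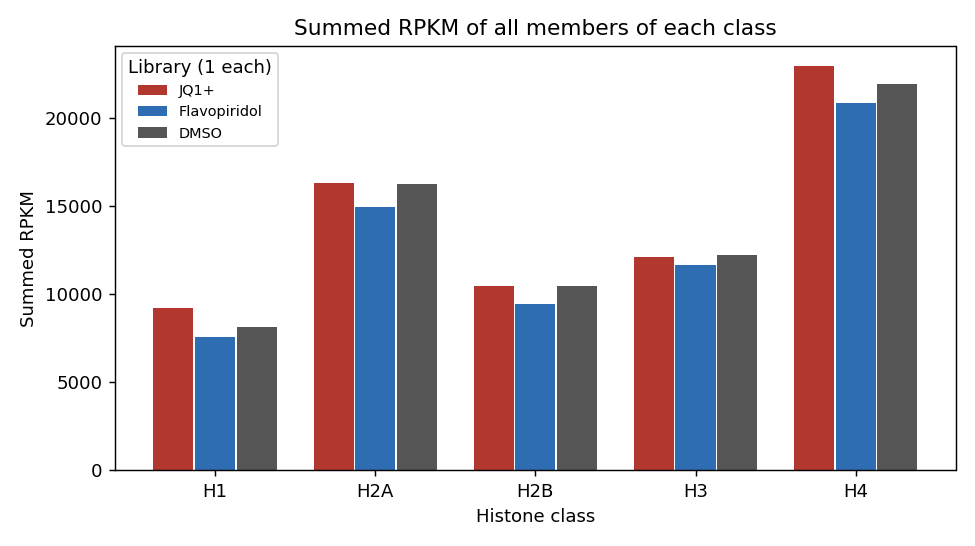
Summed RPKM of all members of each histone class in the JQ1+, flavopiridol and DMSO libraries (1 each, no error bars). H4 reaches 22913, 20815 and 21875 RPKM, H1 is the lowest class at 9218, 7552 and 8134 RPKM, and the flavopiridol bar is the lowest of each class.

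The words rose and fell are kept for members past 2-fold, a size of 1 or more for log2((RPKM + 1)/(RPKM + 1)), where 1 RPKM is the pseudocount. With JQ1+, 3 of the 63 members rose against DMSO and 0 fell, beside 1.98% of all 14790 genes higher, 5.29% lower and 7.27% in either direction. The 3 were Hist1h2ba, Hist1h3d and Hist2h2be. With flavopiridol 0 members rose and 1, Hist1h4n, fell, beside 3.55% of all genes higher, 2.88% lower and 6.43% in either direction. The median log2 change of the 63 members was 0.01 with JQ1+, where the median of all genes was -0.08. With flavopiridol it was -0.14, where the median of all genes was 0.13, so members lay 0.27 below it. Both drug comparisons share the DMSO library.

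**Figure D3:**
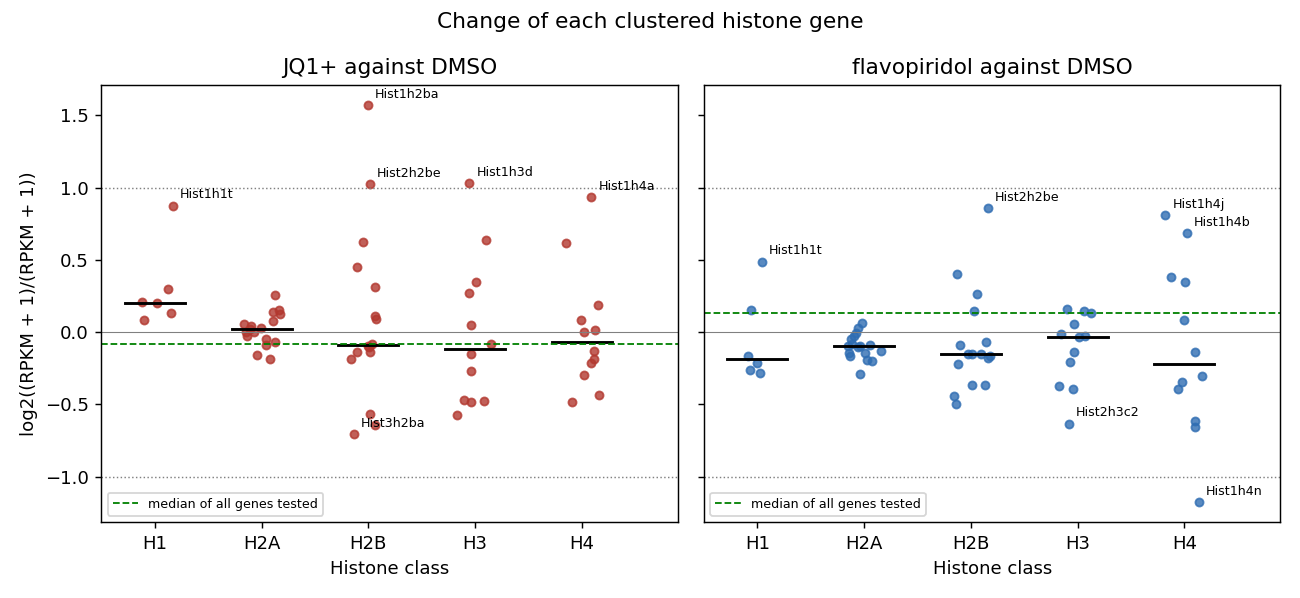
log2((RPKM + 1)/(RPKM + 1)) of each member against DMSO, with JQ1+ on the left and flavopiridol on the right, by class; black bars are class medians, dotted lines mark 2-fold and the dashed line the median of all 14790 genes. H2A genes lie between -0.19 and 0.26 with JQ1+ and between -0.29 and 0.06 with flavopiridol, while H2B, H3 and H4 spread wider with JQ1+.

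All 6 linker histone genes stood above DMSO with JQ1+, each by less than 2-fold on the scale used, beside 5939 of all 14790 genes. Hist1h1e, the most abundant H1 by RPKM, had 3683 RPKM with JQ1+, 2768 with flavopiridol and 3203 with DMSO. Hist1h1a had 2394 RPKM with JQ1+, 2428 with flavopiridol and 2179.7 with DMSO, and was the somatic H1 that stood above DMSO with both drugs as deposited. Its log2 change of 0.16 with flavopiridol was about as large as what rescaling by the median of ratios takes off. Hist1h1c had 1310.1 RPKM with JQ1+, 1103 with flavopiridol and 1236 with DMSO. Hist1h1b had 1297 RPKM with JQ1+, 867 with flavopiridol and 1055 with DMSO. Hist1h1d had 531 RPKM with JQ1+, 385 with flavopiridol and 461 with DMSO. None of these 5 passed 2-fold in any comparison.

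Each somatic H1 was higher with JQ1+ than with DMSO, by log2 0.08 (Hist1h1c) to 0.30 (Hist1h1b). Each except Hist1h1a was lower with flavopiridol than with DMSO, by -0.16 (Hist1h1c) to -0.28 (Hist1h1b). Between the drugs Hist1h1b differed most of the 5, at 0.58 with JQ1+ against flavopiridol. Within the H1 sum, Hist1h1a made up 25.97% with JQ1+, 32.2% with flavopiridol and 26.8% with DMSO. Rescaling by the median of ratios or by the sum of counts raises the JQ1+ values relative to DMSO, so it could not reverse the H1 directions with JQ1+. H1 genes have the most sequence of their own: between 68.0% and 100% of their 50-base stretches are in no other gene's GENCODE M21 transcript. In GENCODE M21 the model of Hist1h1e, 1930 bases long, overlaps that of Hist1h2be on the same strand. The RPKM of Hist1h1e imply a length of only 0.748 kb, so whether the counted model reaches the overlap was not tested.

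The testis H1 gene Hist1h1t had 1.98 RPKM with JQ1+, 1.28 with flavopiridol and 0.627 with DMSO, from 34, 20 and 12 reads. Its ratio to DMSO with JQ1+ was 3.17 with an interval of 0.978 to 13.3, so no difference was detectable at this depth.

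H2A genes had the narrowest spread of changes of all classes. The standard deviation of their log2 changes was 0.11 with JQ1+ and 0.09 with flavopiridol, against 0.60 and 0.35 for H2B and 0.42 and 0.59 for H4. Hist2h2aa2, the most abundant H2A, had 2778 RPKM with JQ1+, 2587 with flavopiridol and 2953 with DMSO, and its copy Hist2h2aa1 had 2361, 2205 and 2443. Neither has a 50-base stretch of its own, so how reads were divided between them is uncertain. Hist1h2ak had 1856 RPKM with JQ1+, 1778 with flavopiridol and 1700.3 with DMSO. Hist2h2ac had 1638 RPKM with JQ1+, 1273 with flavopiridol and 1555 with DMSO, and its -0.29 with flavopiridol was the lowest change of the class.

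Of the 17 H2A genes counted, 10 were above DMSO and 7 below it with JQ1+, and 2 above and 15 below with flavopiridol. Of all 14790 genes, 5939 were above DMSO with JQ1+ and 9427 with flavopiridol. The H2A median was 0.02 with JQ1+ and -0.10 with flavopiridol, and none of the 17 passed 2-fold. The remaining H2A members with a mean of at least 1 RPKM ranged from Hist2h2ab, with 43.0 RPKM with JQ1+, 49.97 with flavopiridol and 49.1 with DMSO, to Hist1h2af, with 1039, 820.1 and 942. H2A genes share much sequence, with a median of 32.7% of 50-base stretches of their own. In GENCODE M21 a gene model on the opposite strand overlaps exons of all 18 H2A genes. Whether the counting used strand is not given in the sources used here, so reads of such partners cannot be told apart.

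H2B held 2 of the 3 members that rose with JQ1+, both of low abundance. Hist1h2ba, which encodes the testis-specific H2B known as TH2B, had 60.3 RPKM with JQ1+, 17.6 with flavopiridol and 19.6 with DMSO, from 442, 117 and 160 reads. It rose with JQ1+ by log2 1.57, or 3.08-fold (2.26 to 4.25), while flavopiridol and DMSO differed by less than counting error. Its divergent partner Hist1h2aa was near 0 in all 3 libraries, although the printed promoter window is shared with it. Hist2h2be, an H2B variant known in the mouse from olfactory neurons, had 11.8 RPKM with JQ1+, 10.4 with flavopiridol and 5.28 with DMSO. It rose with JQ1+ by log2 1.02, or 2.23-fold (1.75 to 2.85), and stood 0.86 above DMSO with flavopiridol, or 1.97-fold (1.53 to 2.55). With a pseudocount of 5 RPKM the JQ1+ value of Hist2h2be was 0.71 and no longer past 2-fold.

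The abundant H2B genes moved less. Hist1h2bb had 1688 RPKM with JQ1+, 1747 with flavopiridol and 1859 with DMSO. Hist1h2bj had 1299 RPKM with JQ1+, 1106 with flavopiridol and 1428 with DMSO. Hist1h2bg had 1355 RPKM with JQ1+, 1123 with flavopiridol and 1271 with DMSO, and Hist1h2bk 1208, 972 and 1374. All 4 were below DMSO with flavopiridol, Hist1h2bk most, at -0.50. Hist2h2bb had 1194 RPKM with JQ1+, 929 with flavopiridol and 774 with DMSO, and was above DMSO with both drugs, at 0.62 and 0.26.

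Hist1h2bp and Hist1h2bq lay on opposite sides of DMSO with the drugs. Hist1h2bp had 275 RPKM with JQ1+, 568 with flavopiridol and 429 with DMSO, log2 changes of -0.64 and 0.40. Between the drugs it passed 2-fold, at -1.05 with JQ1+ against flavopiridol, or 2.07-fold lower (1.93 to 2.21), but the value was -0.81 after rescaling by the median of ratios and -0.94 after scaling by the sum of counts. Hist1h2bq had 247 RPKM with JQ1+, 133 with flavopiridol and 181 with DMSO, log2 changes of 0.45 and -0.44. Its own 50-base stretches were 2.68%, so how reads were divided between it and its copies is uncertain. Hist3h2ba, outside the main cluster, had 27.1 RPKM with JQ1+, 38.3 with flavopiridol and 44.9 with DMSO, and its log2 change of -0.71 with JQ1+ was the lowest of all members. Hist1h2be had 193 RPKM with JQ1+, 221 with flavopiridol and 285 with DMSO, below DMSO with both drugs at -0.56 and -0.37. The other H2B genes, Hist1h2bc, Hist1h2bf, Hist1h2bh, Hist1h2br and Hist3h2bb-ps, lay between -0.10 and 0.31 with JQ1+ and between -0.17 and 0.15 with flavopiridol.

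H3 genes lay on both sides of DMSO with JQ1+. Their sum was near the DMSO level with Hist1h3g included, at 0.991 times, but at 0.928 times without it and at 1.056 times by the median of ratios. Hist1h3d had 845 RPKM with JQ1+, 314 with flavopiridol and 413 with DMSO, from 19880, 6737 and 10861 reads. It rose with JQ1+ by log2 1.03, or 2.04-fold (1.97 to 2.13), and its value with flavopiridol was -0.39. Hist1h3g had 1921 RPKM with JQ1+, 1205 with flavopiridol and 1232 with DMSO, a change of 0.64 with JQ1+. Hist1h3a had 1004 RPKM with JQ1+, 1480.4 with flavopiridol and 1497 with DMSO, and its -0.58 with JQ1+ was the lowest of the class. Hist1h3h (-0.48), Hist1h3c (-0.48), Hist1h3e (-0.47) and Hist1h3i (-0.27) were also below DMSO with JQ1+, and each was within 0.16 of DMSO with flavopiridol.

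Hist1h3b had 1510.4 RPKM with JQ1+, 1129 with flavopiridol and 1462 with DMSO, so it differed from DMSO beyond counting error with flavopiridol, at -0.37, but not with JQ1+. Hist2h3b had 1333 RPKM with JQ1+, 1089 with flavopiridol and 1049.6 with DMSO. Hist2h3c2 had the lowest H3 change with flavopiridol, -0.63, with 811 RPKM with JQ1+, 552 with flavopiridol and 856 with DMSO. Of the other H3 genes, Hist1h3f was at -0.15 with JQ1+ and -0.14 with flavopiridol, and Hist2h3c1 at 0.27 and -0.21. The median over the 12 H3 genes was -0.11 with JQ1+ and -0.03 with flavopiridol. Hist1h3d has 75.2% of its 50-base stretches to itself, the highest of the class, whereas Hist2h3b and Hist2h3c1 have none.

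H4 genes, which encode near-identical proteins, had the widest spread of changes with flavopiridol. By RPKM, though not by reads, Hist1h4d was the most abundant histone gene, with 5759 RPKM with JQ1+, 4922 with flavopiridol and 5426 with DMSO. It ranked 24, 33 and 34 by RPKM among all genes. It took 25.1% of the H4 sum with JQ1+, 23.6% with flavopiridol and 24.8% with DMSO. Hist1h4n had 1519 RPKM with JQ1+, 905 with flavopiridol and 2050.1 with DMSO, from 12307, 6681 and 18554 reads. It fell with flavopiridol by log2 -1.18, or 2.26-fold (2.16 to 2.38), and its value with JQ1+ was -0.43. Only 14.4% of its 50-base stretches are its own, and with members under 50% left out, a split chosen after the data were seen, 0 members were past 2-fold with flavopiridol. Hist1h4m, with a near-identical promoter window and 10.2% of 50-base stretches its own, stood on the other side of DMSO with flavopiridol. It had 1664.3 RPKM with JQ1+, 2164 with flavopiridol and 1663.6 with DMSO. How reads were divided between Hist1h4n and Hist1h4m is uncertain. Hist1h4k, with 2515 RPKM with JQ1+, 1965 with flavopiridol and 3095 with DMSO, was lower by -0.66 with flavopiridol, and Hist1h4i by -0.62. Only 28.5% of the 50-base stretches of Hist1h4k are its own, so how reads were divided between it and its copies is uncertain. Its promoter window closely resembles that of Hist1h4j, which stood on the other side of DMSO with flavopiridol.

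In the other direction, Hist1h4j had 847 RPKM with JQ1+, 1627 with flavopiridol and 929 with DMSO, a change of 0.81 with flavopiridol and -0.13 with JQ1+. Hist1h4b had 1036 RPKM with JQ1+, 1649.9 with flavopiridol and 1025 with DMSO, a change of 0.69 with flavopiridol and 0.01 with JQ1+. These are the genes with the stem-loop printed for Hist1h4b, a match seen after their values. In GENCODE M21 a gene model on the opposite strand overlaps Hist1h4b. Hist1h4m (0.38) and Hist1h4h (0.35) were also above DMSO with flavopiridol. Other H4 genes stood above DMSO mainly with JQ1+. Hist1h4a had 1795 RPKM with JQ1+, 759 with flavopiridol and 938 with DMSO, a change of 0.94 with JQ1+ that passed 2-fold after rescaling by the median of ratios. Hist1h4c had 3281 RPKM with JQ1+, 2264 with flavopiridol and 2135 with DMSO, a change of 0.62 with JQ1+ and 0.08 with flavopiridol. Of the other H4 genes, Hist1h4f was at -0.22 with JQ1+ and -0.35 with flavopiridol, and Hist2h4 at -0.18 and -0.39. The H4 median was -0.07 with JQ1+ and -0.22 with flavopiridol.

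Between the drugs, 4 of the 63 members were past 2-fold. With JQ1+ against flavopiridol 3 members were higher, Hist1h2ba (1.72), Hist1h3d (1.42) and Hist1h4a (1.24), and 1, Hist1h2bp, was lower, beside 2.06% of all genes higher, 6.87% lower and 8.92% in either direction. The median over members was 0.15, and 44 of 63 were above 0. Over all 14790 genes the median was -0.21, and 4449 were above 0. After rescaling by the median of ratios the median of members was 0.38. JQ1 and flavopiridol are not structurally related and the doses differed.

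**Figure D4:**
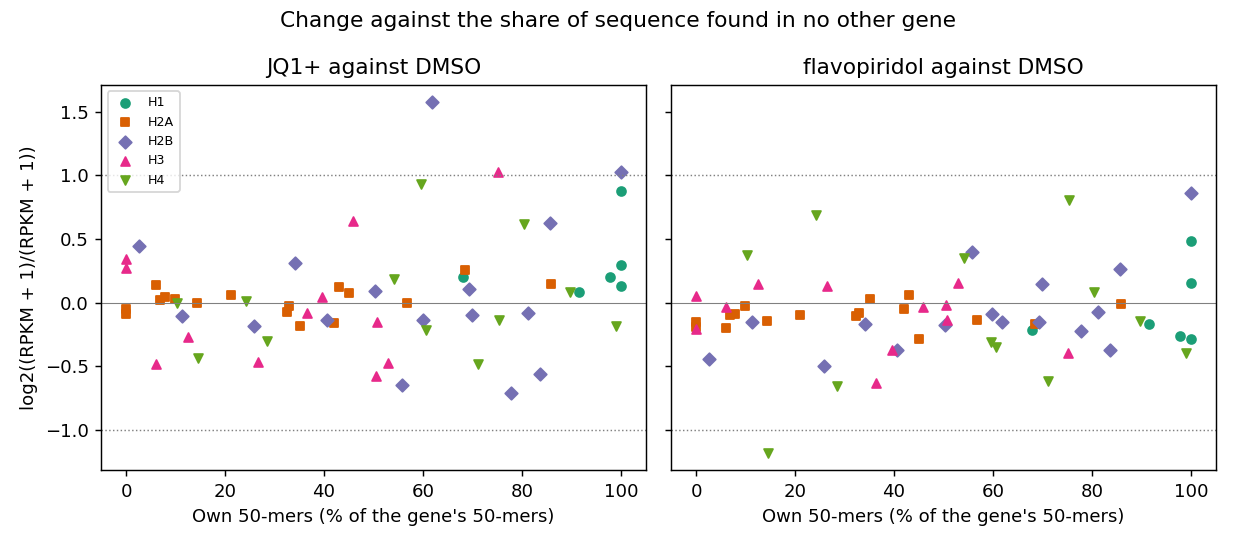
log2((RPKM + 1)/(RPKM + 1)) of each member against DMSO, with JQ1+ on the left and flavopiridol on the right, against the percentage of its 50-base stretches found in no other gene's GENCODE M21 transcript; symbols and colours mark the classes and dotted lines 2-fold. The 3 members past 2-fold with JQ1+ lie at or above 61.8%, and the member past 2-fold with flavopiridol lies at 14.4%.

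Near-identical copies limit how finely reads can be given to members. Of the 64, 33 have at least 50% of their 50-base stretches to themselves and 4 have none. These shares are of GENCODE M21 transcripts, which can be longer than the length behind the RPKM. The model of Hist1h4d has 1138 bases against 0.393 kb, and that of Hist1h2bh 1679 bases against 0.436 kb. For others, such as Hist1h3d with 1249 bases and 1.249 kb, the lengths match. Shares over the counted sequence alone were not computed. With JQ1+ the standard deviation of changes was 0.54 over the 32 counted members with at least 50% and 0.25 over the other 31. With flavopiridol it was 0.34 and 0.33. The length behind the RPKM also differs between members: the median was 0.535 kb, but Hist1h1d was scaled to 3.82 kb, which lowers its RPKM against Hist1h1e, scaled to 0.748 kb, although their counts with DMSO were 37040 and 50426.

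Sharing a promoter window did not give H2A and H2B partners the same value in every pair. In the 6 pairs, the log2 values of both genes had the same sign in 2 pairs with JQ1+ and in 4 pairs with flavopiridol. With JQ1+ both same-sign pairs held an H2A gene that did not differ from DMSO beyond counting error, Hist1h2ae and Hist1h2an. The median gap between partners was 0.28 on the log2 scale with JQ1+ and 0.24 with flavopiridol. With JQ1+ the widest gap, 1.89, was between Hist1h2ba and Hist1h2aa, which was under the minimum level.

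Genes that act on histone transcription and processing stayed within 2-fold with both drugs. Of 13 genes of histone transcription, 0 rose and 0 fell with JQ1+ or flavopiridol, beside 7.27% and 6.43% of all genes past 2-fold. For a list of 13 genes a count of 0 is near that background, and the same holds for the list of 29 genes below. Npat, the cyclin E-Cdk2 target that switches on histone genes, had 47.1 RPKM with JQ1+, 49.7 with flavopiridol and 45.7 with DMSO. Casp8ap2 (FLASH), which works in both transcription and processing, had 68.7, 77.0 and 70.1. Hinfp, a factor for H4 promoters, had 37.3 RPKM with JQ1+, 26.4 with flavopiridol and 33.3 with DMSO. The octamer coactivator Pou2af1 had 1337 RPKM with JQ1+, 1244 with flavopiridol and 1259 with DMSO. Changes of the 13 ran from -0.38 to 0.39 with JQ1+ and from -0.32 to 0.73 with flavopiridol. The cyclin E genes Ccne2 (0.73) and Ccne1 (0.72) were the highest with flavopiridol, and Hinfp the lowest.

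Of 29 genes of 3′ end processing and decay, 0 passed 2-fold, with medians of -0.11 with JQ1+ and 0.23 with flavopiridol beside -0.08 and 0.13 for all genes. Slbp had 84.2 RPKM with JQ1+, 70.5 with flavopiridol and 71.7 with DMSO. The U7 proteins Lsm10 (24.5, 29.2 and 25.3 RPKM) and Lsm11 (4.56, 7.36 and 6.20 RPKM) were also within 2-fold. Changes of the 29 ran from -0.52 to 0.27 with JQ1+ and from -0.60 to 0.76 with flavopiridol. Xrn1 was the lowest with both drugs, and Ncbp2 the highest with flavopiridol.

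Of 23 histone chaperones and carriers, 1 passed 2-fold, beside 7.27% of all genes with JQ1+ and 6.43% with flavopiridol. Daxx, which deposits the H3.3 variant with Atrx, had 41.4 RPKM with JQ1+, 55.9 with flavopiridol and 111.5 with DMSO. It fell with JQ1+ by log2 -1.41, or 2.69-fold (2.49 to 2.91), and its value with flavopiridol was -0.98. The list had a median of -0.05 with JQ1+ and 0.26 with flavopiridol. Asf1a and Nap1l1, which carry H3-H4 and H2A-H2B, were at 0.82 and 0.81 with flavopiridol.

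Replacement variants, many of which are made outside S phase and from polyadenylated RNA, were measured beside the clustered genes. How the RNA of each variant ends was not measured here. Of 8 at the minimum level, 0 passed 2-fold, beside 7.27% of all genes with JQ1+ and 6.43% with flavopiridol. The median of the 8 was 0.21 with JQ1+ and -0.05 with flavopiridol. With JQ1+ 5 of the 8 were above DMSO and 3 below it, H2afy (-0.37), Cenpa (-0.20) and H2afj (-0.13). Of all 14790 genes, 5939 were above DMSO with JQ1+. H2afx, the variant phosphorylated at DNA breaks, had 831 RPKM with JQ1+, 426 with flavopiridol and 489.8 with DMSO, a change of 0.76 with JQ1+. H3f3b had 645 RPKM with JQ1+, 434 with flavopiridol and 449 with DMSO, and H3f3a 173, 128 and 133. H2afz had 91.5 RPKM with JQ1+, 86.0 with flavopiridol and 76.7 with DMSO.

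Genes of DNA replication were measured beside the histones because histone RNA accumulates in S phase. Of 40 S phase genes, 0 passed 2-fold, beside 7.27% of all genes with JQ1+ and 6.43% with flavopiridol. The difference from these shares was not tested. The median of the 40 was -0.09 with JQ1+ and 0.26 with flavopiridol, while that of the histone members was 0.01 and -0.14. Pcna, the sliding clamp, had 222 RPKM with JQ1+, 256 with flavopiridol and 206 with DMSO. With flavopiridol the S phase list therefore lay above the median of all genes (0.13) and the histone members below it; whether this difference exceeds that between cultures was not tested.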

How the data were processed

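Total RNA of 3 cultures was extracted with Trizol and depleted of ribosomal RNA with Ribo-Zero, per the labels' protocols. Each deposited table gives a read count and an RPKM per gene, per the file headers. RPKM is a read count divided by gene length and by a library total, as the authors scaled it. The genome build was mm9, per the submitters' processing notes; the aligner, counter, annotation, read length, strand and treatment of reads with several matches are things not given in the sources used here. Of symbols listed more than once, the row of highest mean RPKM stood for the gene.

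Deposited counts summed to 2.72 times (JQ1+), 2.92 times (flavopiridol) and 2.84 times (DMSO) the total that the deposited RPKM and GENCODE M21 gene lengths imply. Counts were divided by these values before exact conditional binomial 95% intervals were computed for ratios of RPKM; 3 counts correspond to at most 0.0598 CPM. Changes are log2((RPKM + 1)/(RPKM + 1)) over the 14790 genes that reach 1 RPKM on average. No model was fitted, since each group had 1 library. The code was tested on simulated data. Python 3.11.15, pandas 2.3.3, numpy 2.4.6, scipy 1.17.1 and matplotlib 3.10.9 were used.

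Genes were named when among the 4 of highest mean RPKM of a class, among the 4 highest or 4 lowest changes with a drug, a somatic or testis H1, a testis H2A or H2B, past 2-fold, or on a short list of histone regulators. Other genes named were chosen after their values were seen, among them Hist1h2bq, Hist1h4m, H2afy, Cenpa, H2afj, Pou2af1, Ccne1, Ccne2, Ncbp2, Xrn1, Asf1a and Nap1l1. Members and lists were chosen with earlier results of these data known. Alternatives changed the pseudocount, the minimum, the scaling and the members included.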

Additional observations from a re-analysis of the deposited data

How the results depend on the processing

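No paired analysis was possible because each group had 1 library and the labels carry no replicate numbers. The median member change with JQ1+ against DMSO became 0.1055 by the median of ratios, 0.0777 by the sum of counts and 0.0891 over members with at least 50% own 50-mers, an alternative chosen after seeing the data. With flavopiridol against DMSO it became -0.2791 by the median of ratios. For JQ1+ against flavopiridol it became 0.3791 and 0.2499 by these scalings. The number of members past 2-fold with flavopiridol became 0 over members with at least 50% own 50-mers.

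Class sums are given in the order H1, H2A, H2B, H3, H4. JQ1+ over DMSO was 1.207, 1.07, 1.065, 1.056 and 1.115 by the median of ratios and 1.184, 1.05, 1.045, 1.036 and 1.094 by the sum of counts. Flavopiridol over DMSO was 0.8406, 0.831, 0.8166, 0.8626 and 0.8615, and 0.9019, 0.8917, 0.8762, 0.9256 and 0.9244. JQ1+ over flavopiridol was 1.436, 1.287, 1.304, 1.224 and 1.295, and 1.312, 1.177, 1.192, 1.119 and 1.184. Without the member of highest mean RPKM, JQ1+ over DMSO was 1.019 for H2A, 1.02 for H2B and 0.9276 for H3. Flavopiridol over DMSO was then 0.9702 for H1 and 0.9663 for H4. JQ1+ over flavopiridol was then 1.157 for H1, 1.141 for H2B, 0.9765 for H3 and 1.079 for H4. The sums move by the ratio of the scaling factors, and the cause of the difference between scalings was not tested.

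Among all genes past 2-fold, the share that was higher moved with flavopiridol against DMSO to 40.8% by the median of ratios, against 55.2% as deposited, and with JQ1+ against flavopiridol to 43.6%, against 23.0%. With a pseudocount of 0.1 RPKM, Hist1h1t also passed 2-fold with JQ1+, and by the median of ratios Hist1h4a did. By the median of ratios Hist1h2bq passed 2-fold between the drugs.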
